A study of Mus musculus with 4 samples.

Results

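Nuclear-coded subunits of the mitochondrial respiratory chain and of ATP synthase that most tissues use were followed through cardiac differentiation of mouse pluripotent stem cells. The members were 43 RefSeq transcripts of Nduf, Sdh, Uqcr, Cox and Atp5 genes and of cytochrome c, without the muscle isoforms Cox6a2, Cox7a1 and Cox8b. Of these, 41 were spotted on the arrays under the same identifier, out of 33227 identifiers in all. They comprised 14 members in complex I, 4 in complex II, 7 in complex III with cytochrome c, 10 in complex IV and 6 in complex V. The identifiers NM_020615 (Atp5c1) and NM_007506 (Atp5g1) were not among the spots. The 41 members were read by 52 probes on 61 spots, and every one of these was well above background on all 4 arrays.

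RNA from 4 populations was hybridized to 1-colour Agilent arrays, with 1 array for each and no replicates. Flk1+ MPCs, mesodermal precursor cells that carry the receptor Flk1, were sorted at day 4.5 of differentiation without leukemia inhibitory factor. PCBs, the PDGFRα+ cardioblasts, were sorted at day 5.5 after treatment with CsAYTE, a mix of Cyclosporin A, Y27632 against ROCK, Trolox as an antioxidant and EW7197 against ALK5. The sfPCBs are cardioblasts that formed spontaneously by day 5.5 without CsAYTE. M+CMs were cardiomyocytes at day 10.5 positive for GFP under the αMHC promoter, which the study describes as derived from PCBs. Their sample label does not mention CsAYTE. All arrays lay on 1 slide. The methods name EMG7, a mouse embryonic stem cell line that carries this reporter, and OP9 stromal cells as the feeder layer on which sorted Flk1+ MPCs were grown further, so remnants of the feeder are possible from day 5.5 on. Whether an array held cells of 1 or several differentiations is not given in the sources used here. Signals are background-subtracted spot intensities scaled to the 75th percentile of each array, in arbitrary units. A value of 1 on the log2 scale is a 2-fold difference, and the error of a log2 difference is the scanner software's own estimate for the spot (0.20 for a member with 1 probe). It does not cover differences between cultures or RNA preparations, and no test between populations was possible. The signals of different genes come from different probes and were not set against each other.

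The respiratory chain passes electrons from NADH, through complex I, and from succinate, through complex II, to ubiquinone. Complex III hands them to cytochrome c, and complex IV transfers them to oxygen. Complexes I, III and IV pump protons out of the mitochondrial matrix, and complex V, ATP synthase, uses the return flow of protons to make ATP. Heart muscle is among the tissues richest in mitochondria. Most of the subunits are coded by nuclear genes, whose promoters are known targets of the factors NRF1, GABP, YY1 and ERR.

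Promoter sequences from RefSeq, build GRCm38.p6, were found for 31 of the 41 members, with 33 start sites. Each covers 250 bases before and 50 after the start. Among those without one were Cox6c, Uqcrc2, Cyc1, Ndufs1, Sdhc, Cox4i1, Uqcrq and Uqcrb, and that of Atp5a1 was not used here. Both strands were searched for GCGCANGCG (NRF1), CCGGAAG (GABP), AAGATGGCG (YY1) and TCAAGGTCA (ERR), none of which holds another. The NRF1 letters were in 9 of 33 member promoters (27.3%) and in 6.25% of all 32851 promoters of that length. For GABP the shares were 8 of 33 (24.2%) and 8.86%, for YY1 5 of 33 (15.2%) and 1.40%, and for ERR 2 of 33 (6.06%) and 0.423%. At least 1 of the 4 was present in 18 of 33 (54.5%), against 15.2% of all promoters. A match to these letters is not a measured binding site. The 200 bases before the start are shown for 4 members, 5′ to 3′ on the strand of the gene, with matches in capitals. Cycs, as the mean of its 3 probes, and Cox6a1 had the largest and the smallest difference of their complexes between M+CMs and PCBs. Sdhd held 3 of the 4 motifs (its ERR match lies behind the start and is not in the stretch shown). Ndufab1 was the member that ran against the others.
Cycs, chr6:50566570-50566769, minus strand: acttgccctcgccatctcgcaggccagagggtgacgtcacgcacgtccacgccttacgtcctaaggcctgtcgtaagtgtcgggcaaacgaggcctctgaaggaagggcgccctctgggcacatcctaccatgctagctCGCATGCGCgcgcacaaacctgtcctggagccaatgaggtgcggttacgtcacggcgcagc
Cox6a1, chr5:115348959-115349158, minus strand: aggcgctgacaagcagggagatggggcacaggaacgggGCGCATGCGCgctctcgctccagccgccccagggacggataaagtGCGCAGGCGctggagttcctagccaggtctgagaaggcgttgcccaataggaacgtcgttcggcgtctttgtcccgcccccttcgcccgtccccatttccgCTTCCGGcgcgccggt
Sdhd, chr9:50603850-50604049, minus strand: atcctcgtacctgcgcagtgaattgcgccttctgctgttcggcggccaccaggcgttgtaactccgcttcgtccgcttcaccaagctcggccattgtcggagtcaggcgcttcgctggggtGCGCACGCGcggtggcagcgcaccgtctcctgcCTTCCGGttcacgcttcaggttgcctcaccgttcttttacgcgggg
Ndufab1, chr7:122101849-122102048, minus strand: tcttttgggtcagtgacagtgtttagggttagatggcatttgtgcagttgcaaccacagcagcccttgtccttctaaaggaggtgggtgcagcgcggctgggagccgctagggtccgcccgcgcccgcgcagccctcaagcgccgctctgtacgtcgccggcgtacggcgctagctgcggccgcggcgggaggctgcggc
Cycs holds 1 NRF1 match, Cox6a1 overlapping NRF1 matches on both strands followed by a further one and a GABP match close to the start, Sdhd 1 NRF1 and 1 GABP match, and Ndufab1 none in the whole window.

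The subunits were highest in M+CMs. Of the 41 members, 40 had their highest signal on the M+CM array, whereas 37.9% of the 21981 identifiers detected on all 4 arrays did. The exception was Ndufab1, which was highest in sfPCBs, where 14.5% of all identifiers peaked. No member was highest in PCBs or in Flk1+ MPCs, against 9.62% and 38% of all identifiers. Between M+CMs and PCBs the median log2 difference of the members was 1.44 (quartiles 1.22 and 1.59), and the median of all compared identifiers was 0.16. In M+CMs 36 members exceeded PCBs at least 2-fold and none was 2-fold lower, where the shares over all identifiers were 20.5% and 15.3%. M+CMs were higher by more than 2 spot errors for 40 members, and for 35.2% of all identifiers. RNA was taken from whole sorted populations, so fewer cells of a type and less RNA per cell cannot be told apart.

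**Figure D1:**
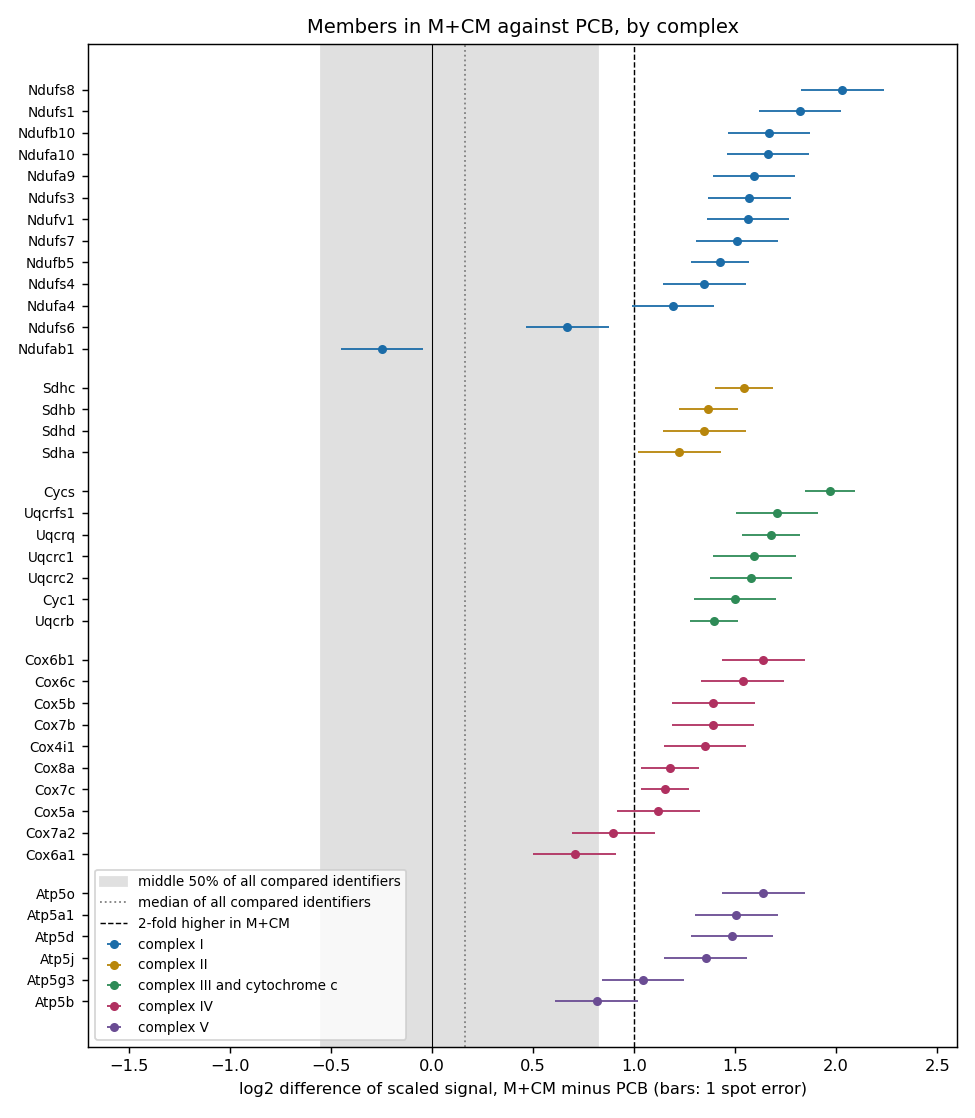
Log2 difference of the scaled signal between M+CMs and PCBs (x axis) for 40 of the 41 members, grouped by complex; bars are 1 spot error from the scanner software, not replicate error. The grey band and dotted line are the middle 50% and the median (0.16) of all compared identifiers; 35 of those drawn lie at or right of the dashed 2-fold line, and Ndufab1 (-0.25) is the member left of 0.

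In complex I, which takes electrons from NADH, 12 of 14 members were above PCBs by 2-fold or more in M+CMs (median log2 difference 1.54). The members of its electron-carrying core were all among them. Ndufs8 (NM_144870) had the largest difference of all members, 2.03 (error 0.20). Its signal was 6971 (Flk1+ MPCs), 4948 (sfPCBs), 5258 (PCBs) and 21495 (M+CMs), and the last was 4.09-fold that of PCBs. Ndufs1 (NM_145518), the large iron-sulfur subunit, had signals of 38001, 27266, 31608 and 111600 in the same order of populations, which is kept below. Ndufv1 (NM_133666), which binds NADH and the flavin, had 60980, 47583, 55994 and 165544. Further core subunits also had their high value in M+CMs. Ndufs3 (NM_026688) had signals of 52647, 32001, 34448 and 102353. For Ndufs7 (NM_029272) they were 57122, 40540, 44115 and 125623.

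Accessory subunits of complex I surround the core and serve its assembly and stability, and most of these were also higher in M+CMs. Ndufa9 (NM_025358) had signals of 31175, 20168, 21377 and 64491. Ndufa10 (NM_024197) had 13903, 10602, 10076 and 31912, one of the few members whose PCB signal was below that of sfPCBs. Ndufb10 (NM_026684), in the membrane arm, had 43516, 30974, 35226 and 111957. Another membrane arm subunit, Ndufb5 (NM_025316), was read by probes that disagreed in sign between PCBs and Flk1+ MPCs, and its signals were 12768, 10739, 12131 and 32584. Ndufs4 (NM_010887) had 25886, 18108, 19834 and 50510. Ndufa4 (NM_010886), first counted to complex I and later found with complex IV, had 48225, 37845, 40531 and 92615. All of these passed 2-fold between M+CMs and PCBs. Ndufs6 (NM_010888), an accessory subunit at the base of the peripheral arm, did not, at 91622, 69266, 82746 and 131745 (log2 difference 0.67, error 0.20).

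Ndufab1 (NM_028177), the mitochondrial acyl carrier protein, which also serves fatty acid synthesis in the matrix, went the other way. Its signal was 3143 (Flk1+ MPCs), 3150 (sfPCBs), 2296 (PCBs) and 1936 (M+CMs). Flk1+ MPCs and sfPCBs were level and M+CMs were lowest, with a log2 difference of -0.25 from PCBs, which is within 2 spot errors, and of -0.70 from Flk1+ MPCs, which is beyond them. It was read by 1 probe on 1 spot, with no further probe for this identifier.

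Complex II, succinate dehydrogenase, is also an enzyme of the tricarboxylic acid cycle, and all 4 members were above PCBs by 2-fold or more in M+CMs (median log2 difference 1.36). Sdhc (NM_025321), a membrane anchor, had the largest difference, 1.54 (error 0.14), with signals of 19610, 12911, 17026 and 49626. Sdha (NM_023281), the flavoprotein that oxidizes succinate, had the smallest, 1.22 (error 0.20), with 34021, 23200, 24112 and 56339. Sdhb (NM_023374), the iron-sulfur subunit, was level between Flk1+ MPCs and sfPCBs, at 25988, 25932, 28172 and 72716. Sdhd (NM_025848), the other anchor, had 42246, 32829, 34610 and 88123.

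Complex III and cytochrome c formed the group in which all 7 members were above both PCBs and Flk1+ MPCs by 2-fold or more in M+CMs. The median log2 difference from PCBs was 1.59. Cycs (NM_007808), cytochrome c itself, had the second largest difference of all members, 1.97 (error 0.12), with signals of 3441, 2603, 3304 and 12930. Its 3 probes gave 1.40, 1.87 and 2.63, the last on a dim probe that read 49.2 in PCBs and 306 in M+CMs. The brightest gave 1.40, so its size and rank were less certain than its direction. Uqcrfs1 (NM_025710), the Rieske iron-sulfur protein, had 33303, 18629, 27320 and 89148. Cyc1 (NM_025567), the heme protein that passes electrons to cytochrome c, had 61210, 41320, 51342 and 145084. Uqcrc1 (NM_025407) and Uqcrc2 (NM_025899) are the large core proteins. The former had 15247, 11346, 12055 and 36418, and the latter had 50428, 32906, 34957 and 104410. Uqcrc2 was spotted 10 times on each array, and the SD of its log2 signal over these spots was between 0.032 and 0.075, which is the noise of spotting and scanning on 1 array only. Its log2 difference between M+CMs and PCBs was 1.58. Uqcrb (NM_026219), a small subunit near the quinone site, had the smallest difference of the group, 1.39 (error 0.12), with 38575, 26490, 31363 and 82440.

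Uqcrq (NM_025352), another small subunit of complex III, was the one member above its Flk1+ MPC level in PCBs by more than 2 spot errors. Its signal was 27472 (Flk1+ MPCs), 31165 (sfPCBs), 38056 (PCBs) and 121616 (M+CMs), so each population stood above the one before in this order. The log2 difference between PCBs and Flk1+ MPCs was 0.47 (error 0.14), and it lay between 0.47 and 0.68 under the alternatives tried. From Flk1+ MPCs to M+CMs it had the largest difference of all members, 2.15, or 4.43-fold.

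In complex IV, cytochrome c oxidase, whose catalytic core is coded by mitochondrial DNA, 8 of the 10 nuclear-coded members were above PCBs by 2-fold or more in M+CMs (median log2 difference 1.27). Cox6b1 (NM_025628), which faces the intermembrane space, had the largest difference, 1.64 (error 0.20), with signals of 13423, 10757, 10760 and 33523. Cox6c (NM_053071) had 68660, 52608, 62734 and 182137. Cox5b (NM_009942), a zinc-binding subunit on the matrix side, had 72930, 59504, 65524 and 172059. These were all lowest in sfPCBs, by margins from PCBs that ran from nearly 0 for Cox6b1 to 0.25 for Cox6c on the log2 scale. Cox4i1 (NM_009941), the ubiquitous isoform of the subunit through which ATP acts on the enzyme, was lowest in PCBs instead, at 183862, 149889, 138664 and 353940. Cox7b (NM_025379) had 66711, 51076, 55873 and 146429. Cox5a (NM_007747) had 125062, 103994, 116634 and 253686. In M+CMs these stood between 2.18-fold (Cox5a) and 2.62-fold (Cox7b) above PCBs. Cox7c (NM_007749) had 7766, 4550, 5293 and 11781 as the mean of 3 probes that differed widely in brightness. Between M+CMs and PCBs the brighter probes gave 1.25 and 1.26. The dim probe read 193 in PCBs and 374 in M+CMs and stayed below 2-fold (0.957). Cox8a (NM_007750), the ubiquitous counterpart of the muscle isoform Cox8b, had 133072, 102627, 115681 and 261947. Cox7a2 (NM_009945), the counterpart of Cox7a1, stayed below 2-fold between M+CMs and PCBs, with a log2 difference of 0.90 (error 0.20) and signals of 45750, 31032, 40261 and 75044. Cox6a1 (NM_007748), the counterpart of Cox6a2, was nearly flat up to day 5.5 and had the smallest difference of the complex, 0.71 (error 0.20), at 234267, 233908, 233289 and 380534.

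In complex V, 5 of 6 members were above PCBs by 2-fold or more in M+CMs (median log2 difference 1.42). Atp5o (NM_138597), in the peripheral stalk that holds the catalytic head, had the largest difference, 1.64 (error 0.20), with 38280, 22085, 30429 and 94860. Atp5j (NM_016755), also of the peripheral stalk, had 42761, 36000, 39176 and 100183. Atp5a1 (NM_007505) and Atp5b (NM_016774) code for the paired subunits of the catalytic head. Atp5a1 had 99915, 73150, 92023 and 261512. Atp5b, which carries the catalytic sites, had the smallest difference of the complex, 0.82 (error 0.20), with 270445, 196906, 217788 and 383194. Between these partners the log2 differences were 1.51 and 0.82, so Atp5b was above its PCB level by less. Atp5d (NM_025313), of the central stalk, had 25646, 22617, 23287 and 65193. Atp5g3 (NM_175015), which codes for the proton-carrying ring subunit, had 137613, 111274, 130458 and 269144.

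The genes of the absent identifiers were on the arrays under other RefSeq identifiers, which the rule did not cover. NM_001161419 (Atp5g1), which codes for the same ring subunit as Atp5g3, had signals of 70593, 64870, 66069 and 203051, with the same shape as the members. NM_001112738 (Atp5c1), of the central stalk, had 50469, 30378, 32644 and 37655, so it was highest in Flk1+ MPCs and its log2 difference between M+CMs and PCBs was 0.21 (error 0.14).

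Against Flk1+ MPCs, M+CMs were higher for the same 40 members, by a median log2 difference of 1.20 (quartiles 0.96 and 1.36) beside 0.0043 over all identifiers. At least 2-fold differences were counted for 28 members upwards and none downwards, where the shares over all identifiers were 22.2% and 21.5%. The medians by complex were 1.17 in I, 1.20 in II, 1.26 in III with cytochrome c, 0.999 in IV and 1.27 in V. This comparison and the former share the M+CM array. Over all 4 arrays the range from the lowest to the highest population was at least 2-fold for 37 members (90.2%) and for 57.4% of the identifiers detected on all arrays.

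**Figure D2:**
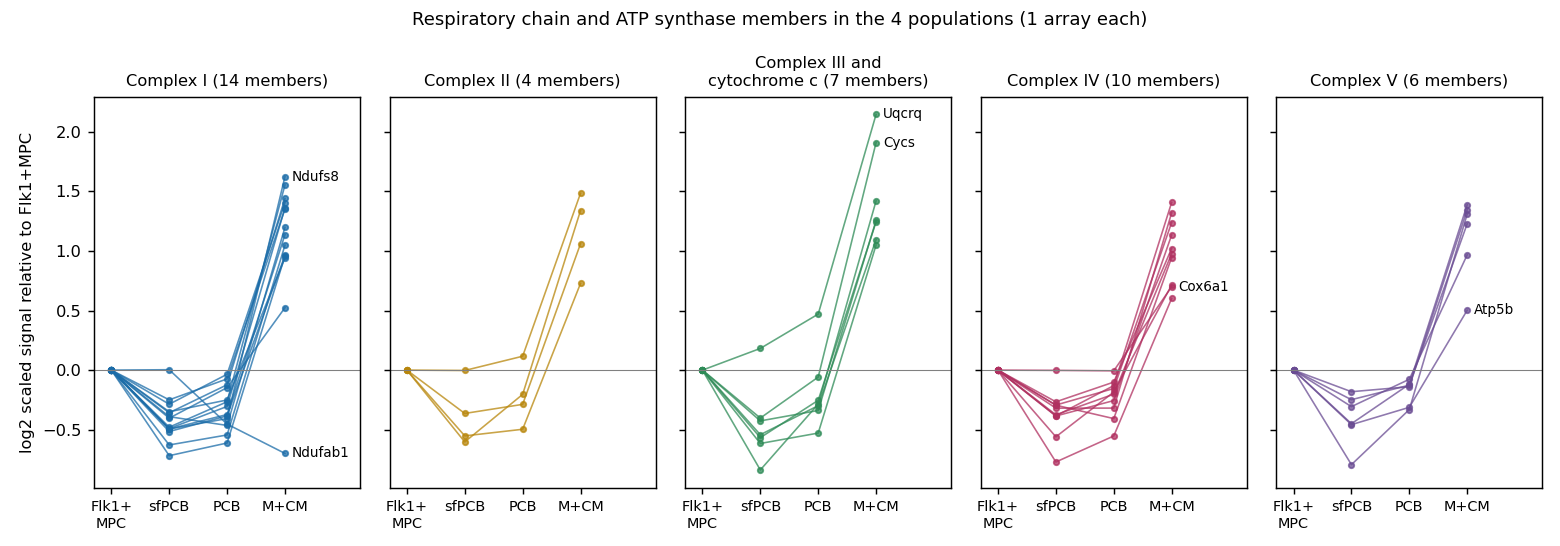
Log2 scaled signal of each member relative to Flk1+ MPCs (y axis) in the 4 populations (x axis, 1 array each), with 1 line per member and 1 panel per complex. Of 41 lines, 40 end above 0 in M+CMs, and 38 lie below 0 in both day 5.5 populations, a count that is 19 under quantile normalization and 23 with no scaling; Uqcrq is above 0 in the other 3 populations and Ndufab1 ends below 0.

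Between the populations of days 4.5 and 5.5 the members differed little. None passed 2-fold between PCBs and Flk1+ MPCs (12.8% of all identifiers were 2-fold higher and 12.1% lower), between sfPCBs and Flk1+ MPCs (13.1% and 12.7%) or between PCBs and sfPCBs (6.18% and 7.51%). With the 75th percentile scaling, PCBs were below Flk1+ MPCs for 39 members, with a median log2 difference of -0.26 beside -0.20 over all identifiers, and under quantile normalization the median was 0.0239. Beyond 2 spot errors, 8 members (19.5%) were lower and 1 (2.44%) was higher, both below the shares over all identifiers, 32.7% and 21.1%. The median relative to all identifiers was -0.059, and 0.19 under quantile normalization, so a direction between PCBs and Flk1+ MPCs was not settled. Flk1+ MPCs were above both day 5.5 populations for 38 members, but for 19 under quantile normalization and 23 with no scaling. Members lowest in PCBs relative to Flk1+ MPCs were Ndufs3 (-0.61), Cox7c (-0.55) and Ndufa9 (-0.54).

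The sfPCB array held the lowest signal of 36 members, against 25.2% of all identifiers, and 21 members (51.2%) were below Flk1+ MPCs by more than 2 spot errors, as were 35% of all identifiers. The median log2 difference from Flk1+ MPCs was -0.40, beside -0.22 over all identifiers. The members furthest below were Uqcrfs1 (-0.84), Atp5o (-0.79) and Cox7c (-0.77), which take part in complexes III, V and IV. Without scaling between arrays the median was -0.0651 where that of all identifiers was 0.12, and under quantile normalization it was -0.142. Relative to all identifiers the median was -0.18, and 0.060, on the other side of 0, under quantile normalization. The count of members lowest in sfPCBs was 15 without scaling, where the share over all identifiers was 10.9%, and 28 under quantile normalization, where it was 25.1%.

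CsAYTE-induced PCBs and sfPCBs, both of day 5.5, were set against each other to see whether the members went with the treatment. The signal was higher in PCBs for 37 of 41 members, but the median log2 difference was 0.15 (quartiles 0.087 and 0.25), beside 0.028 over all identifiers, and without scaling it was -0.0082 beside -0.13. Relative to all identifiers, which scaling by 1 factor per array cannot change, it was 0.12, and 0.078 under quantile normalization. Beyond 2 spot errors, 5 members (12.2%) were higher in PCBs and 1 (2.44%) was lower, both below the shares over all identifiers, 16.5% and 17%. Uqcrfs1 had the largest difference, 0.55, followed by Atp5o with 0.46 and Sdhc with 0.40. Ndufab1 had the smallest, -0.46. By complex the medians were 0.13 in I, 0.098 in II, 0.29 in III with cytochrome c, 0.15 in IV and 0.19 in V.

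**Figure D3:**
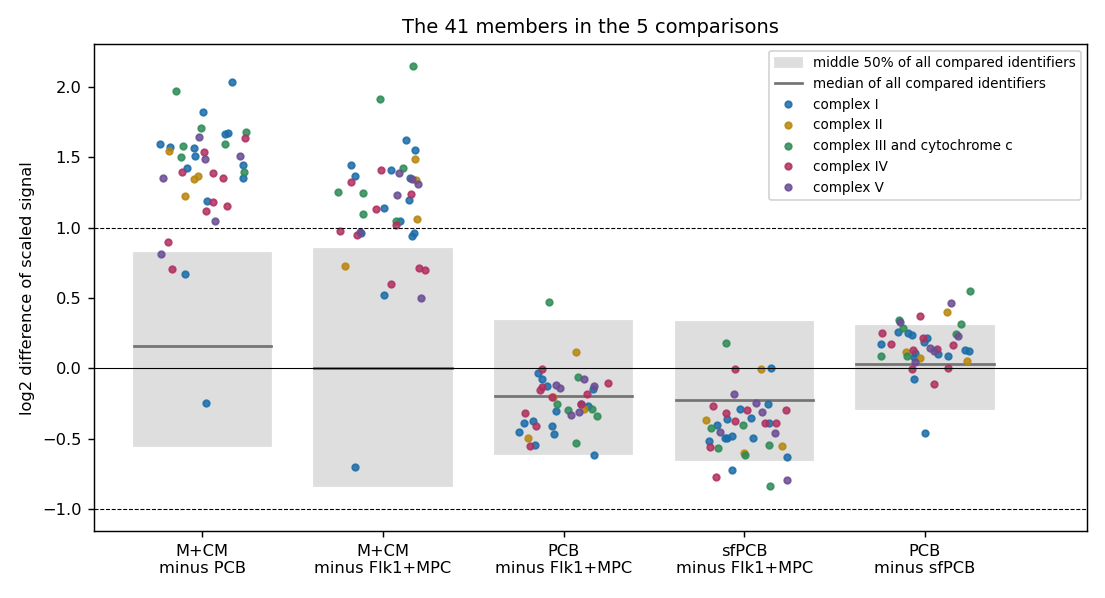
Log2 differences of the 41 members (points, coloured by complex; sideways spread is only for display) in the 5 comparisons, with the middle 50% (grey box) and median (line) of all compared identifiers. In the comparisons of M+CMs, 37 of 41 members (against PCBs) and 34 of 41 (against Flk1+ MPCs) lie above the box, with medians of 1.44 and 1.20; the 3 comparisons without M+CMs have no member past 2-fold.

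Markers of the sorted cells and of their neighbours differed between these populations. Kdr, which codes for Flk1, had a mean signal of 24858 (Flk1+ MPCs), 5511 (sfPCBs), 2363 (PCBs) and 3993 (M+CMs) over 2 probes. These disagreed in size, with 54864, 4559, 768 and 2126 for 1 and 11263, 6661, 7272 and 7499 for the other. Both were highest in Flk1+ MPCs. Pdgfra, the gene of the sorted PDGFRα, had 7237, 3647, 9136 and 918, so it was lower in sfPCBs than in Flk1+ MPCs. The summed signal of 9 cardiomyocyte markers, all detected on each array, was 7520, 5381, 520006 and 1326380, so it was highest in M+CMs, as were most members, and far above the Flk1+ MPC value in PCBs. Its low sum in sfPCBs came from Myl7, which had 6095 in Flk1+ MPCs and 588 in sfPCBs, while 6 of the 9 markers were higher in sfPCBs than in Flk1+ MPCs. Of 6 markers of stromal cells such as OP9, 4 were detected in Flk1+ MPCs and 6 elsewhere, and their summed signal was 2133, 254743, 144156 and 21412. Most of this sum came from Col1a1 and Col1a2, with 58341 and 175056 in sfPCBs. From PCBs to M+CMs 2 of the 6 markers, Lum and Dcn, were at least 2-fold higher and 4 were at least 2-fold lower. Lum, a stromal matrix gene, was not well above background in Flk1+ MPCs and had 8782 (sfPCBs), 30.2 (PCBs) and 104 (M+CMs). The 3 endothelial markers summed to 283, 2861, 228 and 405 and the 4 blood markers to 293, 3109, 2635 and 197. Cdh5, which marks endothelial cells, was not well above background in PCBs and M+CMs. These 3 sums were highest in sfPCBs, but not every marker was. The stromal marker Adipoq (24.9) and the blood marker Ptprc (20.7) were lowest there, and the blood sum rested on the embryonic globin gene Hbb-bh1, with 2781 in sfPCBs and 2525 in PCBs. The part of other cell types in the differences of the members was not tested.

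The muscle isoforms, which take the place of ubiquitous complex IV subunits in heart and skeletal muscle, stood further above PCBs in M+CMs than any member did. Cox6a2 had signals of 32.8, 177, 3774 and 196238, a log2 difference of 5.70 between M+CMs and PCBs. Cox7a1 had 2474, 1569, 4917 and 101814 (4.37). Cox8b was not well above background in Flk1+ MPCs and sfPCBs, was just above it at 18.2 in PCBs and had 10753 in M+CMs, at least 684-fold higher than in Flk1+ MPCs. Their ubiquitous counterparts Cox6a1, Cox7a2 and Cox8a had log2 differences of 0.71, 0.90 and 1.18 between M+CMs and PCBs, and were not lower in M+CMs. Isoforms known from other tissues or from low oxygen were also higher in M+CMs than in PCBs, for all 5 compared. Of these, 4 (80%) were 2-fold higher or more, beside 20.5% of all identifiers. Against Flk1+ MPCs they were mixed, with 3 of 5 higher in M+CMs. Cox4i2 had 4200, 908, 708 and 8776, and Ndufa4l2 had 19782, 1387, 874 and 3799, so both were lowest in PCBs and Ndufa4l2 was highest in Flk1+ MPCs. The largest and smallest differences of this list between M+CMs and PCBs were those of Cox4i2 (3.63) and the germ cell cytochrome Cyct (0.43), which had 31.4 in Flk1+ MPCs, was not well above background in sfPCBs, and had 25.7 in PCBs and 34.7 in M+CMs.

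Further ubiquitous subunits outside the members gave a similar picture between M+CMs and PCBs. Of 36 compared, 28 (77.8%) were above PCBs by 2-fold or more in M+CMs and none lower, with a median log2 difference of 1.26. The shares over all identifiers were 20.5% and 15.3%. Ndufa5 of complex I was at the top, with 24265, 21104, 26320 and 95321 (1.86). Atp5g2, which codes for the same ring subunit as Atp5g1 and Atp5g3, was at the bottom, with 218009, 141556, 173277 and 186574 (0.11), and was highest in Flk1+ MPCs. The enzymes of the tricarboxylic acid cycle, which feed the chain with NADH and succinate, were at least 2-fold higher for 12 of 14, with a median of 1.37. The smallest difference of this list was that of Suclg2, the subunit of the GTP-forming succinyl-CoA ligase, which had 3541, 2053, 1902 and 1922 (0.02).

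Assembly factors, which build the complexes but are not part of them, had a share nearer to that of all identifiers. Of 39 compared, 11 were above PCBs by 2-fold or more in M+CMs (28.2%, beside 20.5% of all identifiers) and none lower, with a median of 0.61. Of these 11, Lyrm7 was not well above background in PCBs and had 29.6 in M+CMs, at least 1.90-fold higher, so its call was not secure. Cox20, a chaperone of complex IV, had the largest difference, 2.91, with 4153, 3379, 5217 and 39123. Ndufaf2, an assembly factor of complex I, had the smallest, -0.84, with 10201, 6421, 5711 and 3192. Carriers and pores that exchange ATP, ADP and metabolites, listed together with mitochondrial creatine kinases, were at least 2-fold higher for 4 of 11. That was 36.4%, beside 20.5% of all identifiers, with a median of 0.93. Of these 4, Ckmt2 was not well above background in PCBs and had 29.3 in M+CMs, at least 1.88-fold higher, so its call was not secure. Over the 10 genes detected on both arrays the median was 0.90. Slc25a12, the aspartate and glutamate carrier of muscle and brain, had the largest difference, 3.13, with 900, 2860, 2671 and 23349, and its liver-type relative Slc25a13 had the smallest, 0.28, with 13884, 6993, 6069 and 7381. The ATP/ADP carrier of heart and muscle, Slc25a4, had 119472, 135194, 164606 and 498657 (1.60). Slc25a5, the carrier of dividing cells, had 41888, 15465, 25421 and 41458 (0.71), so that M+CMs were level with Flk1+ MPCs.

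**Figure D4:**
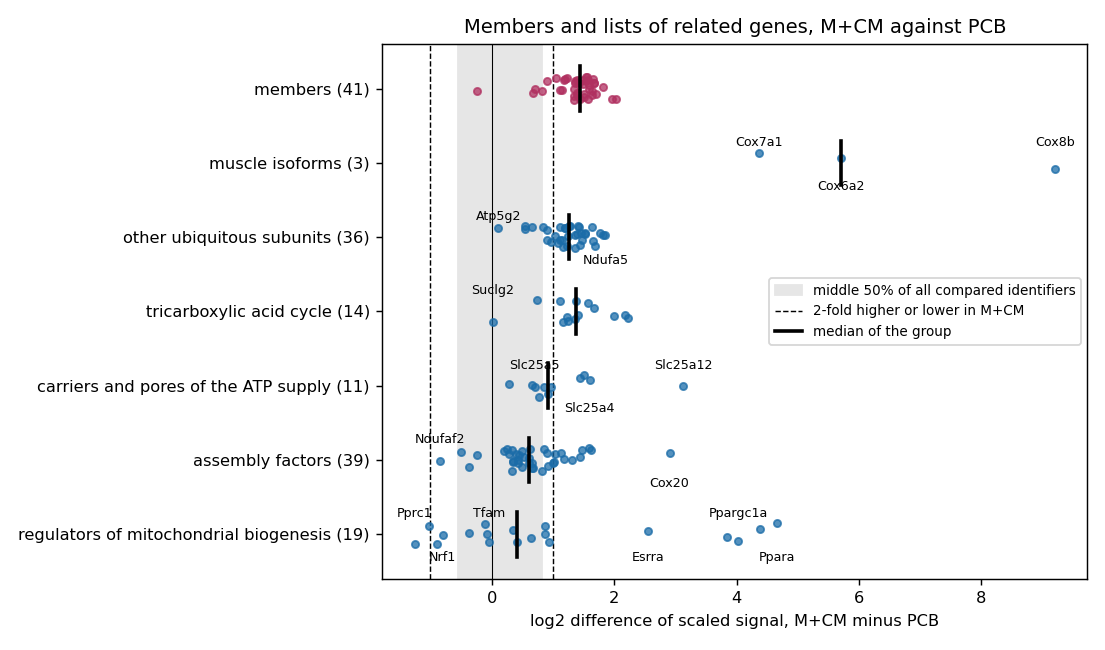
Log2 difference of the scaled signal between M+CMs and PCBs (x axis) for the 41 members (top) and 6 lists of related genes (number compared in brackets); black bars are medians, the grey band is the middle 50% of all compared identifiers. The tricarboxylic acid cycle (median 1.37) and the other ubiquitous subunits (1.26) lie near the members (1.44), the 3 muscle isoforms lie far to the right, and the regulators spread on both sides of 0.

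Of the regulators of mitochondrial biogenesis, 19 were compared. Of these, 5 were above PCBs by 2-fold or more in M+CMs and 2 were lower, with a median of 0.42. The shares over all identifiers were 20.5% and 15.3%. The 5 were Ppargc1a, Ppargc1b, Esrra, Esrrb and Ppara, and the lower ones were Pprc1 and Gabpb1. Gabpb1 passed 2-fold as the mean of 2 probes, of which the dimmer gave -1.71 and the brighter -0.32, below 2-fold. Ppargc1a, which codes for PGC-1α, was read by 2 probes with the same pattern. The brighter gave 19.1, 23.3, 927 and 13534, and the dimmer gave 55.1 in PCBs and 998 in M+CMs and was not well above background before. Its mean log2 difference between M+CMs and PCBs was 4.02, and it was above both sfPCBs and Flk1+ MPCs in PCBs, as were the members Uqcrq and Sdhb by far smaller differences. Esrra, which codes for the receptor ERRα, had 8999, 4716, 7957 and 46744 (2.55), with the low value in sfPCBs and the high value in M+CMs that most members had. Esrrg, which codes for ERRγ, had 39.2, 78.7, 1778 and 3248 (0.87), its step being between sfPCBs and PCBs. Ppara, a receptor that drives fatty acid oxidation genes, had the largest mean difference of the list, 4.66, with 46.1, 64.9, 48.9 and 1234. Its 3 probes disagreed in size, at 5.53, 7.69 and 0.75, so this rank was uncertain. The probe at 7.69 was well above background in M+CMs only. The probe at 0.75 stayed below 2-fold, with 521, 591, 537 and 905.

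Nrf1, Gabpa and Yy1, whose letters were searched in the promoters, did not share the pattern of the members. Of the ERR genes, Esrra and Esrrg were highest in M+CMs, as most members were. Esrrb had 1242, 169, 66.6 and 961 (3.85), so it was highest in Flk1+ MPCs and lowest in PCBs. Nrf1 had signals of 899, 597, 622 and 358, a log2 difference of -0.80 between M+CMs and PCBs. Gabpa had 2005, 1291, 1118 and 1416 (0.34). Yy1 had 6001, 3675, 3912 and 3714 (-0.08). Tfam, which packs mitochondrial DNA, had 4611, 2482, 2178 and 2113 (-0.04), and like Nrf1, Gabpa and Yy1 it was highest in Flk1+ MPCs. Pprc1, the growth-related member of the PGC-1 family, had the smallest difference of the list, -1.26, with 1972, 1435, 1180 and 493. The activity of these factors was not measured.

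The members were detected well inside the range of the arrays. Percentiles were taken among the 27244 identifiers detected on at least 1 array. The median of the members lay at the 94.6th percentile in Flk1+ MPCs, the 94.1st in sfPCBs, the 94.6th in PCBs and the 97.8th in M+CMs. No spot was saturated. For 8 members with several probes, all probes gave the same sign between M+CMs and PCBs, whereas 2 members had probes of opposite sign between PCBs and Flk1+ MPCs (Cycs and Ndufb5) and 1 between sfPCBs and Flk1+ MPCs (Sdhb).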

How the data were processed

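RNA of 4 mouse populations (1 array each, no replicates) was measured, and populations were assigned from the sample labels. The authors deposited spot intensities from Agilent Feature Extraction 11.5.1.1, background-subtracted and not normalized between arrays, with an error and flags for each spot. The deposited log2 value table is the log2 of the same signal. Probes were designed on mm9. Spots carry identifiers without symbols, and symbols came from RefSeq (GRCm38.p6, names only), which matched all 43 member identifiers. Of 129 genes in the further lists, 128 were on the arrays.

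Controls were left out, as were spots with a flag for non-uniformity, for an outlier or by hand (between 87 and 144 per array; no spot was saturated). Signals were scaled so that the 75th percentile of each array (1970 to 2536) equalled their mean (2198). Repeated spots were averaged as log2, and an identifier took the mean over its probes that were well above background on at least 1 array (at least 0.5 of its spots). Of 33227 identifiers, 27244 were detected on at least 1 array. A comparison covered identifiers detected on either array. A call is a difference of at least 2-fold, and no test was run. A signal below background was replaced by the lowest well-detected signal (15.1 to 15.7) for a bound. Depth has no meaning for arrays, whose number limits the precision.

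The members, gene lists and markers were chosen with earlier results of these data known. The rule for named genes was the largest and smallest M+CM against PCB difference of each complex and list, every member at least 2-fold different in a comparison, the largest and smallest difference between PCBs and sfPCBs, and 11 genes fixed by name. Ndufb5, Sdhb, Cox4i2, Ndufa4l2, Yy1, Ppargc1b, Esrrb, Gabpb1, Ckmt2, Lyrm7 and single markers in further statements were named after their values were seen. So were the absent genes' other identifiers. Some items that this rule would name are not reported here. The counting steps were tested on simulated arrays. Alternatives were quantile normalization, no scaling, a percentile over probes detected on all arrays, normexp with an offset of 50, detection on all arrays, saturated spots left out, the log2 value table and the brightest probe. Normexp used median spot intensities, since the files hold no mean. Python 3.11.15 (numpy 2.4.6, pandas 2.3.3, matplotlib 3.10.9) and R 4.3.3 (limma 3.58.1) were used.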

Additional observations from a re-analysis of the deposited data

How the results depend on the processing

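Of the 11 summary results, all kept their direction and size within the spot error, or within 1.5 times for counts, under 6 of the 8 alternatives. With no scaling, the median log2 difference of the members between M+CMs and PCBs was 1.23 and that between sfPCBs and Flk1+ MPCs was -0.0651. With quantile normalization, the medians were 1.55 between M+CMs and Flk1+ MPCs, -0.142 between sfPCBs and Flk1+ MPCs, and 0.0239 between PCBs and Flk1+ MPCs, which turned its direction. Members with the highest signal in M+CMs numbered 40 under every alternative, and members that exceeded PCBs at least 2-fold in M+CMs numbered 36, except 31 with no scaling. Relative to the median of all identifiers, the member median between M+CMs and PCBs lay between 1.23 and 1.49. No difference of a single member that was called changed sign. No spot was saturated, so leaving such spots out could change nothing. With 1 array per population no replicate could be left out, and no paired analysis was possible because each population has 1 array. Array number, not signal over background, limits these results, since all members were well above background.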
